A study of Mus musculus with 2 samples.

Results

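Replication-dependent histone genes encode the H1, H2A, H2B, H3 and H4 proteins that package newly made DNA. They were taken as all protein-coding genes of GENCODE release M21 whose symbol begins with Hist1h, Hist2h, Hist3h or Hist4h, which gave 67 genes. Of these, 64 had a row in the gene table made with annotation release M4, out of 43346 genes in that table. Hist1h2bh, Hist1h2bm and Hist2h2bb had no row under their gene identifier and were not analysed here. The RNA came from CH12.LX, an immortalized mouse B cell lymphoma line of strain B10.H-2aH-4bp/Wts with no treatment named in the labels. Total RNA was sequenced in 2 libraries, called biological replicates 1 and 2 in the labels, each with its own biosample record, both derived from 1 donor record. The design holds a single group, so levels are described and the only comparison between samples is replicate 1 over replicate 2, with no test.

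In a dividing cell these genes are transcribed in S phase, when chromatin must be assembled on both daughter strands. An octamer of H2A, H2B, H3 and H4 forms the core of the nucleosome, and the linker histone H1 binds where DNA enters and leaves it. The genes have no introns in most cases and lie in clusters. Their mRNAs are the main class of animal mRNA that ends without a poly(A) tail, in a conserved stem-loop bound by the protein SLBP. Poly(A)-selected libraries therefore lose most of these mRNAs, whereas total RNA keeps them.

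The stem-loop is shown because it marks this mRNA class and because it differed between the classes. A 16-base pattern of it, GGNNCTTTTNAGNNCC (N, any base), was searched in the M21 transcript of each gene, on the transcribed strand. It was present in 44 of 67 histone genes, against 34 of 21884 other protein-coding genes (0.155%) searched over all their transcripts. In the 44 histone transcripts it began 21 to 58 bases after the stop codon (median 31 bases). All 6 base pairs of the stem were complementary, but the pattern itself fixes all of them except those at N positions. The sequences below come from the GENCODE M21 transcripts and run 5′ to 3′ on the transcribed strand. Capitals mark the 16-base pattern and lower case the 5 bases on either side.
Hist1h1c: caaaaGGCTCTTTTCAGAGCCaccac
Hist1h2bg: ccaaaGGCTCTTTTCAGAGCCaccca
Hist1h2bk: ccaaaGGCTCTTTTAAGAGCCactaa
Hist2h2ac: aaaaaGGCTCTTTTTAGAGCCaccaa
Hist1h4d: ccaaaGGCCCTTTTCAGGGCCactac
Hist1h4i: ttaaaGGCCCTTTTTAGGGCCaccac
Hist1h4b: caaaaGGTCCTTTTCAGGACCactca

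The form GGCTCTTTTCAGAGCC was found in 26 genes, all of H1, H2A, H2B or H3. The form of Hist1h2bk was found in 6 genes, and that of Hist2h2ac in 1 gene. The 11 H4 genes with the pattern had none of these forms. Their stems were those of Hist1h4d (7 genes), Hist1h4i (2 genes) and Hist1h4b (2 genes). The pattern was found in 4 of 6 H1, 11 of 18 H2A, 10 of 18 H2B, 8 of 12 H3 and 11 of 13 H4 genes. Among measured genes, the 42 with the pattern had a median transcript length of 619 bases and the 22 without it had 411 bases. Their median levels were 282 and 200 TPM (a transcript level scaled for gene length and for depth). Where the letters were not found, this says only that they are not in the annotated transcript.

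Promoter sequence is shown for 4 genes among the 3 highest of their class. The 150 bases before the RefSeq start are given (GRCm38.p6), 5′ to 3′ on the strand of the gene. Capitals mark TATAAA (gene strand), CCAAT (either strand, so ATTGG too), the octamer ATTTGCAT (either strand) and GGTCCG (either strand). The octamer is the site of the POU factors Oct1 and Oct2, and GGTCCG is a core of the site II element of H4 promoters. GGTCCG was added to the search after the sequences had been seen. Hist1h4d is at chr13:23581418-23581567, plus strand. Hist1h4f is at chr13:23551669-23551818, minus strand. Hist1h2bg is at chr13:23571250-23571399, plus strand. Hist1h1b is at chr13:21780626-21780775, minus strand.
Hist1h4d: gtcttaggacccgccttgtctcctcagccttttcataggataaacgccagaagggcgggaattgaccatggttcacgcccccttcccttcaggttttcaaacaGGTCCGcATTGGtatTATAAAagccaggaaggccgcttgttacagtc
Hist1h4f: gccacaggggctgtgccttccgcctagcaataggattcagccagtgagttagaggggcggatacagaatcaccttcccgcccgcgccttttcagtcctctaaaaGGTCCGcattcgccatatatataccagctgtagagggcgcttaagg
Hist1h2bg: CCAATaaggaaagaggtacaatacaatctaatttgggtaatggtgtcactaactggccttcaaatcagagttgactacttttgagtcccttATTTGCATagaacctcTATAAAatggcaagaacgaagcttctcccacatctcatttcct
Hist1h1b: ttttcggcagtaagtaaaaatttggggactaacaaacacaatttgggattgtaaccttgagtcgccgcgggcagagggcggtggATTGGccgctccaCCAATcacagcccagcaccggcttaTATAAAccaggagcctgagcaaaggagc

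RefSeq promoters matched 62 of the 67 genes, in 63 windows, and the motifs were counted over the 250 bases before the start. TATAAA was in 24 of 63 windows (38.1%), against 7.59% of all 32851 promoters. CCAAT was in 52 windows (82.5%), against 33.8% of all promoters, and in all windows of H1, H2A and H2B genes but in 3 of 12 of H4 genes. The octamer was in 14 windows (22.2%), against 1.60% of all promoters, 7 of them of H2A genes and 7 of H2B genes. GGTCCG was in 11 windows (17.5%), against 6.72% of all promoters, and 9 of the 11 were of H4 genes. H2A and H2B genes often face away from each other across a short interval, so their windows can overlap and 1 motif can count for both genes.

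Replicate 1 totalled 49278383 expected counts and replicate 2 totalled 55950529. Of 10 B cell markers, all 10 reached 1 TPM in both libraries, with Cd79b at 121 and 125 TPM in replicates 1 and 2. Of 27 markers of other cell types, 3 did so, namely Cd3g, Cd3d and Epcam. Markers of other cell types summed to 3.96 and 4.60 TPM in replicates 1 and 2 for the T and NK cell list and to 0.400 and 0.380 TPM for the myeloid list. The sums were 0.760 and 1.38 TPM for the erythroid list and 2.87 and 1.15 TPM for the stroma and epithelium list. Cd3e, Ncr1, Cd14 and S100a8 were at 0 TPM in both libraries. Protein-coding genes held 24.4% of TPM in replicate 1 and 24.3% in replicate 2, with the rest in genes of other types or with no matched type, so a TPM value here would be larger if protein-coding genes alone were scaled.

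Histone mRNA made up a large share of the protein-coding RNA. The 64 genes summed to 21731 TPM for replicate 1 and 23205 TPM for replicate 2, or 8.90% and 9.56% of protein-coding TPM (mean 9.23% ± 0.465, SD, n = 2). By expected counts, which are not scaled for length, they held 2.40% and 2.46% of the protein-coding total. The difference between the scales goes with gene length, since 36 of the 64 genes were annotated at under 500 bases. In RNA from a culture, more cells in S phase and more histone mRNA per cell cannot be told apart.

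Of 64 histone genes, 56 reached 1 TPM in both libraries, against 41.4% of 21474 protein-coding genes. At 100 TPM the count was 49 of 64, against 1.36% of protein-coding genes. The median histone gene was at 250 TPM for replicate 1 and 240 TPM for replicate 2, against 0.180 and 0.210 TPM over all protein-coding genes. Among the 100 highest protein-coding genes by mean TPM, 14 were histone genes, 7 of them H4, 4 H2B, 2 H2A, 1 H3 and 0 H1. With counts divided by the full annotated length, 12 were among the 100 highest.

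**Figure D1:**
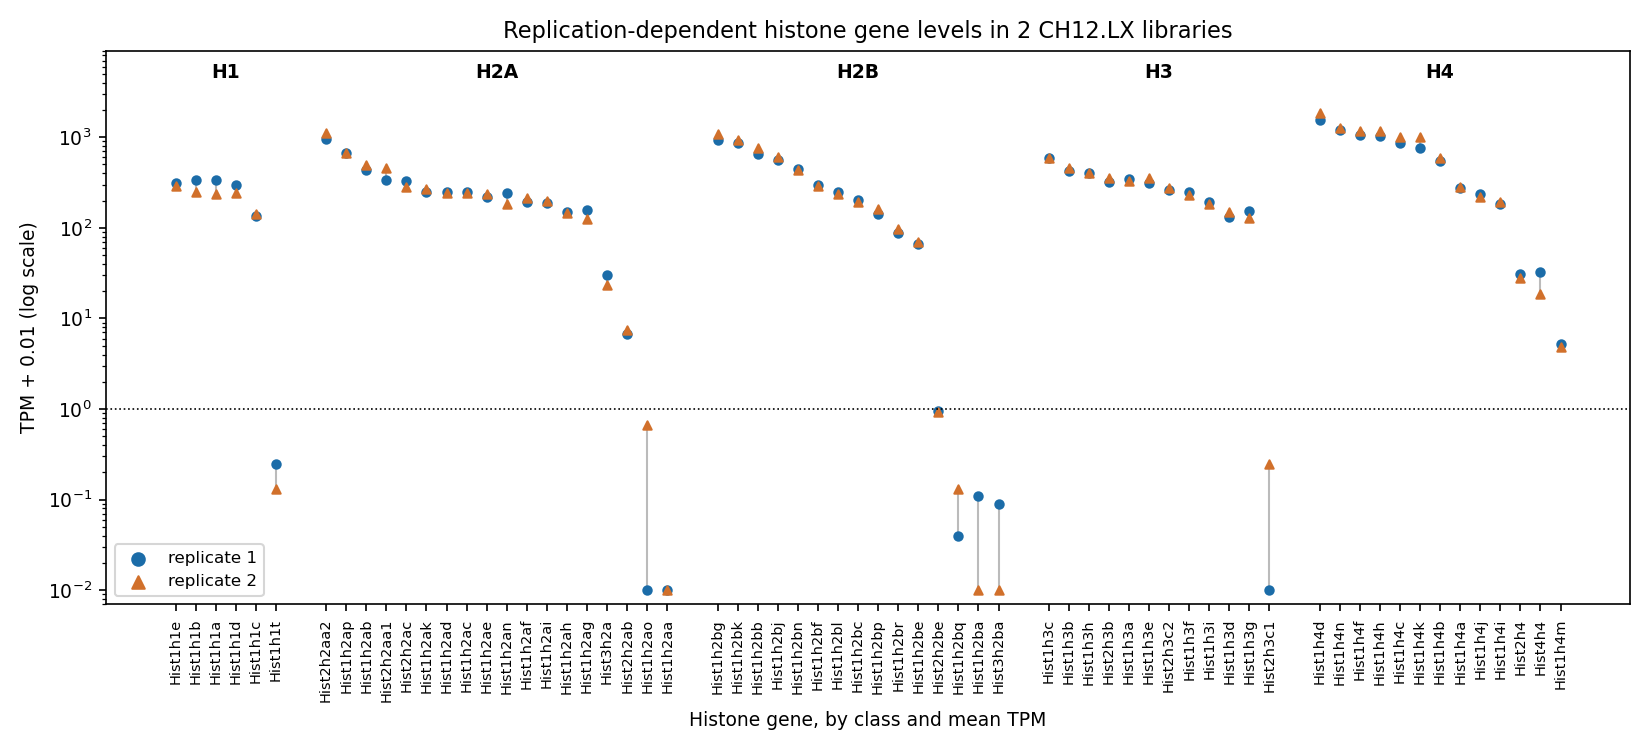
Level of each of the 64 histone genes in TPM + 0.01 (log scale), ordered by mean TPM within its class, with replicate 1 as circles and replicate 2 as triangles. Most genes lie between 100 and 1871 TPM with both libraries close together, and 8 genes lie at or below the dotted line at 1 TPM.

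H4 was the most abundant class by TPM. Its 13 genes summed to 7761 TPM for replicate 1 and 8832 TPM for replicate 2, which was 36.9% ± 1.66 of the histone total (SD, n = 2). H2A held 21.3% ± 0.257, H2B 20.8% ± 0.163 and H3 15.3% ± 0.478. H1 was lowest at 5.75% ± 1.09. The order H4 above H2A and H2B, then H3 and then H1 held in both libraries, while H2A and H2B changed places by expected counts. With expected counts divided by annotated length, the H4 share was 34.2% ± 1.38 and the H1 share 6.91% ± 1.20. With expected counts alone, the H4 share was 29.1% ± 0.901 and the H1 share 10.7% ± 1.47. H1 genes are the longest class in the table (median 744 bases) and H4 genes the shortest (median 430 bases). The H2B share lacks 3 of 18 genes and the other classes lack none.

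**Figure D2:**
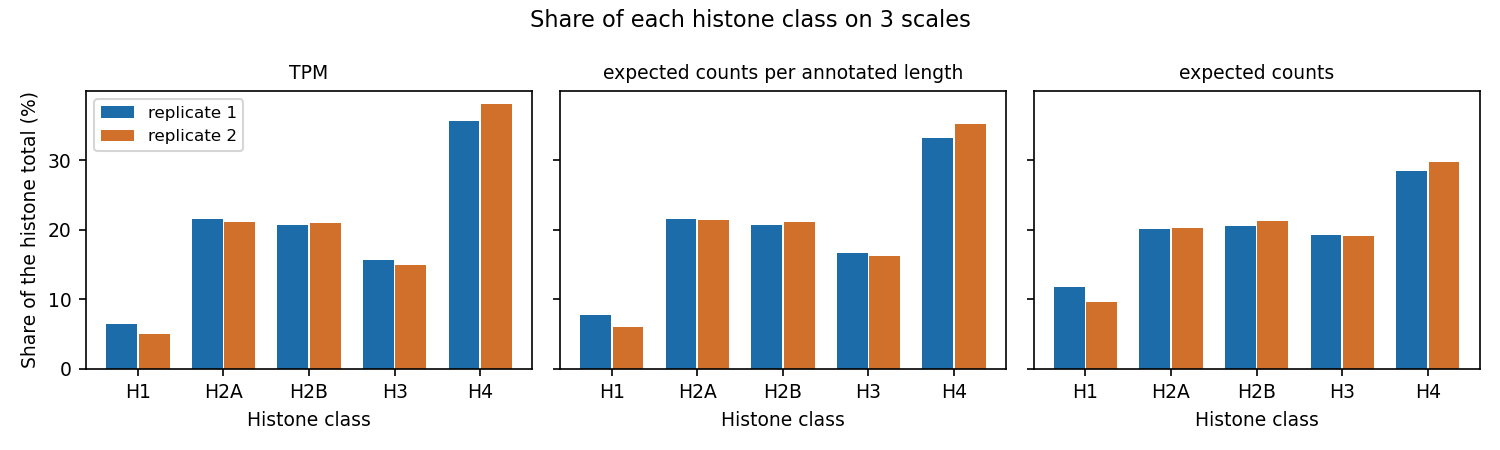
Share of each histone class in the summed histone total (%), in replicate 1 and replicate 2, by TPM, by expected counts per annotated length and by expected counts. H4 is the tallest pair of bars on each scale and H1 the shortest, and the gap between them is smallest for expected counts.

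H4 pairs with H3 at the centre of the nucleosome, and its genes encode near-invariant proteins from many copies. Hist1h4d (chr13:23581598-23582735, plus strand) was the highest histone gene, at 1568 TPM for replicate 1 and 1871 TPM for replicate 2. Among protein-coding genes it ranked 6 by mean TPM and 13 by counts divided by the full annotated length. Hist1h4n was at 1191 and 1272 TPM and Hist1h4f at 1058 and 1172 TPM in replicates 1 and 2. Hist1h4h, Hist1h4c and Hist1h4k followed at means of 1091, 938 and 878 TPM. The 6 highest H4 genes thus lay within a factor of 2 of each other, and all 6 were higher in replicate 2. The lowest were Hist4h4, at 32.2 and 18.6 TPM in replicates 1 and 2, and Hist1h4m, at 5.26 and 4.88 TPM. All 13 H4 genes reached 1 TPM, the only class in which all did.

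Hist1h4m and Hist1h4n have identical coding sequences of 309 bases. Among the 13 H4 genes there were 12 distinct coding sequences, and their median pairwise identity was 93.9%, with the lowest, 85.4%, between Hist2h4 and Hist4h4. Of all 50-base windows of the Hist1h4m transcript, 10.2% were found in no other gene, against 14.4% for Hist1h4n and 89.8% for Hist1h4d. These shares refer to M21 transcripts, and that of Hist1h4d is 1138 bases long, against 393 bases in the M4 table. Reads from the shared part can be assigned to either gene. The deposited posterior SD of the Hist1h4m count was 18.2% of its count in replicate 1, against 0.00503% for Hist1h4d. For Hist1h4n it was 0.0764%. In replicate 1, Hist1h4n and Hist1h4m were at 1222 and 4.98 TPM with M2 and at 1221 and 5.16 TPM with M3. The split between them was thus similar with all 3 annotation releases. The same reads were used each time, so this cannot check how shared reads were assigned.

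H2A genes encode a core histone that forms dimers with H2B. The highest were Hist2h2aa2, at 968 TPM for replicate 1 and 1120 TPM for replicate 2, Hist1h2ap, at 671 and 665 TPM, and Hist1h2ab, at 434 and 489 TPM. The class then ran from Hist2h2aa1 at a mean of 398 TPM to Hist1h2ag at 141 TPM. Hist3h2a was at 30.2 and 23.2 TPM and Hist2h2ab at 6.70 and 7.50 TPM in replicates 1 and 2. The lowest were Hist1h2ao, at 0 and 0.650 TPM, and Hist1h2aa, listed at 0 TPM in both libraries. For Hist1h2aa, a histone gene of the testis, 3 counts would have been 0.117 TPM for replicate 1 and 0.111 TPM for replicate 2.

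Several H2A values cannot be read as those of single genes. Hist2h2aa1 and Hist2h2aa2 have identical coding sequences of 390 bases, and so do Hist1h2ao and Hist1h2ap. No 50-base window of Hist2h2aa2 was its own, since each also occurs in Gm20634, a noncoding gene that was at 1.16 and 0.630 TPM in replicates 1 and 2. Hist1h2ao and Hist1h2ap had 6.50% and 6.93% of windows of their own. The sum of Hist2h2aa1 and Hist2h2aa2 was 1308 TPM for replicate 1 and 1575 TPM for replicate 2, and the sum of Hist1h2ao and Hist1h2ap was 671 and 666 TPM. Over all 64 genes, 32 had fewer than 50% of windows of their own.

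H2B genes encode the partner of H2A. Hist1h2bg led at 925 TPM for replicate 1 and 1093 TPM for replicate 2, followed by Hist1h2bk at 866 and 925 TPM and Hist1h2bb at 649 and 752 TPM. Hist1h2bj and Hist1h2bn were at means of 582 and 440 TPM. Of 15 measured genes, 9 were at 100 TPM or more in both libraries and 4 were under 1 TPM. Hist2h2be was at 0.95 and 0.91 TPM in replicates 1 and 2. It had 257 and 271 expected counts and a transcript with no shared window, so this low level does not rest on the assignment of shared reads. Hist1h2bq was at 0.03 and 0.12 TPM, but 97.3% of its windows also occur in Hist1h2br, which was at 86.8 and 95.9 TPM. Hist1h2br had only 0.166% of windows of its own, so the levels of both depend on read assignment. Hist1h2ba, a testis gene, was at 0.10 TPM for replicate 1 and 0 TPM for replicate 2. Hist3h2ba was at 0.08 and 0 TPM.

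Where the M4 table listed more than 1 transcript of an H2B gene, a single one held most of the TPM. Hist1h2be-202 held 96.6% of Hist1h2be in replicate 1 and 97.8% in replicate 2. Hist1h2bp-201 held 93.2% and 93.4% of Hist1h2bp, and Hist1h2br-203 held nearly all of Hist1h2br in both libraries. Hist1h2bq-203 held all of Hist1h2bq in replicate 1 and 87.2% in replicate 2, on 5.88 and 27.9 expected counts. The annotated span of Hist1h2be (chr13:23583670-23621124) overlaps part of that of Hist1h1e (chr13:23620629-23622558) on the same strand, so some reads can fit both.

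Hist2h2bb had no row of its own, but 53.6% of its windows also occur in Gm42743, which M21 annotates as a noncoding gene. Gm42743 was at 757 TPM for replicate 1 and 588 TPM for replicate 2. It was looked up after the shared windows had been seen and is in no sum here.

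H3 carries most of the histone tail marks that regulate chromatin. Hist1h3c was at 593 TPM for replicate 1 and 595 TPM for replicate 2, Hist1h3b at 423 and 459 TPM, and Hist1h3h at 400 and 407 TPM. The 11 H3 genes above 1 TPM ran from a mean of 139 TPM (Hist1h3g, at 152 and 127 TPM in replicates 1 and 2) to 594 TPM. Hist2h3c1 was at 0 and 0.240 TPM, but it has the coding sequence of Hist2h3c2, which was at 262 and 273 TPM, and no window of its own. Hist2h3b was at 321 and 359 TPM. The 3 Hist2 H3 genes summed to 584 TPM for replicate 1 and 632 TPM for replicate 2.

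H1 linker histones compact chromatin. All 6 H1 coding sequences were distinct, as were all 18 of H2B. No pair of H1 genes had equal coding length, so identity was not computed for this class. The detected H1 genes had at least 68.0% of windows of their own. Some core genes passed that share, such as Hist2h2be at 100% and Hist1h4d at 89.8%. These shares refer to M21 transcripts, and that of Hist1h1d is 7425 bases long, against 744 bases in the M4 table. The levels of 4 genes were close together. Hist1h1e was at 310 TPM for replicate 1 and 289 TPM for replicate 2, Hist1h1b at 337 and 247 TPM, Hist1h1a at 337 and 236 TPM, and Hist1h1d at 295 and 242 TPM. Hist1h1c was lower, at 136 and 142 TPM. Hist1h1t, the H1 of spermatocytes, was at 0.24 and 0.12 TPM on 15 and 8 expected counts. The order of Hist1h1e, Hist1h1b, Hist1h1a and Hist1h1d differed between the libraries, so their means give no firm ranking. Hist1h1e and Hist1h1b were above Hist1h1d in both libraries.

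By position, the Hist1 cluster on chromosome 13 held 89.3% of histone TPM in replicate 1 and 88.9% in replicate 2 (mean 89.1% ± 0.275, SD, n = 2). The Hist2 cluster on chromosome 3 held 10.4% and 10.9%. Hist3 on chromosome 11 averaged 0.120% ± 0.0276, and Hist4 on chromosome 6, which is the single gene Hist4h4, 0.114% ± 0.0483. By expected counts, which are not scaled for length, the mean shares of Hist1, Hist2, Hist3 and Hist4 were 85.0%, 13.4%, 0.681% and 0.889%. Hist3h2a and Hist4h4 are annotated at 2146 and 2879 bases. With members more than 100000 bases apart split, Hist1 split into 4 blocks. The block chr13:23531050-23764406, with 28 measured genes, summed to 12112 TPM for replicate 1 and 13058 TPM for replicate 2. The block chr13:21715763-21837530, with 17 measured genes, summed to 5385 and 5582 TPM, and chr13:22035164-22043676, with 5 genes, to 1913 and 1997 TPM. The last block, chr13:23933773-23934851, holds the testis genes Hist1h2aa and Hist1h2ba and summed to 0.10 and 0 TPM. The 3 active blocks had median levels of 291, 227 and 189 TPM in that order.

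In the Hist2 block (chr3:96219865-96270132) neighbours differed widely by listed TPM. Hist2h2aa1 and Hist2h2aa2 have identical coding sequences, as do Hist2h3c1 and Hist2h3c2, so the levels within each couple depend on read assignment. TPM is scaled for length, and Hist2h4 and Hist2h2be are annotated at 1630 and 2620 bases. Hist2h4 had 5090 and 4915 expected counts in replicates 1 and 2. Hist2h2aa2, Hist2h2aa1, Hist2h2ac, Hist2h3b and Hist2h3c2 were above 100 TPM in both libraries. Hist2h4 was at 31.3 TPM for replicate 1 and 27.8 TPM for replicate 2, and Hist2h2ab, Hist2h2be and Hist2h3c1 were lower still, as given above.

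H2A and H2B genes formed 12 divergent pairs with starts within 500 bases, and no other classes did. In 9 pairs both genes averaged 1 TPM or more, and in 5 the mean levels lay within 2-fold. Hist1h2bf was at 301 and 292 TPM and its partner Hist1h2ad at 249 and 241 TPM in replicates 1 and 2, a 1.21-fold difference of means. Hist1h2bk was at 866 and 925 TPM and its partner Hist1h2ah, 302 bases away, at 148 and 146 TPM, a 6.08-fold difference. Hist1h2bg and Hist1h2ae, 176 bases apart, differed 4.40-fold. Hist1h2ap and Hist1h2br, 236 bases apart, differed 7.3-fold, with the H2A gene Hist1h2ap higher. The H2B gene was the higher one in 6 of the 9 pairs with both genes at 1 TPM or more. The widest gap was in the Hist2 cluster. Hist2h2ac was at 327 and 283 TPM and Hist2h2be, 239 bases away, at 0.95 and 0.91 TPM, a 328-fold difference of means. TPM is scaled for length, and Hist2h2ac is annotated at 520 bases but Hist2h2be at 2620 bases. Expected counts in replicates 1 and 2 were 13055 and 12117 for Hist2h2ac and 257 and 271 for Hist2h2be, a smaller gap. Hist1h2ah had 9.27% of windows of its own, Hist1h2ap 6.93% and Hist1h2br 0.166%, so their levels are less certain than that of Hist2h2be.

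**Figure D3:**
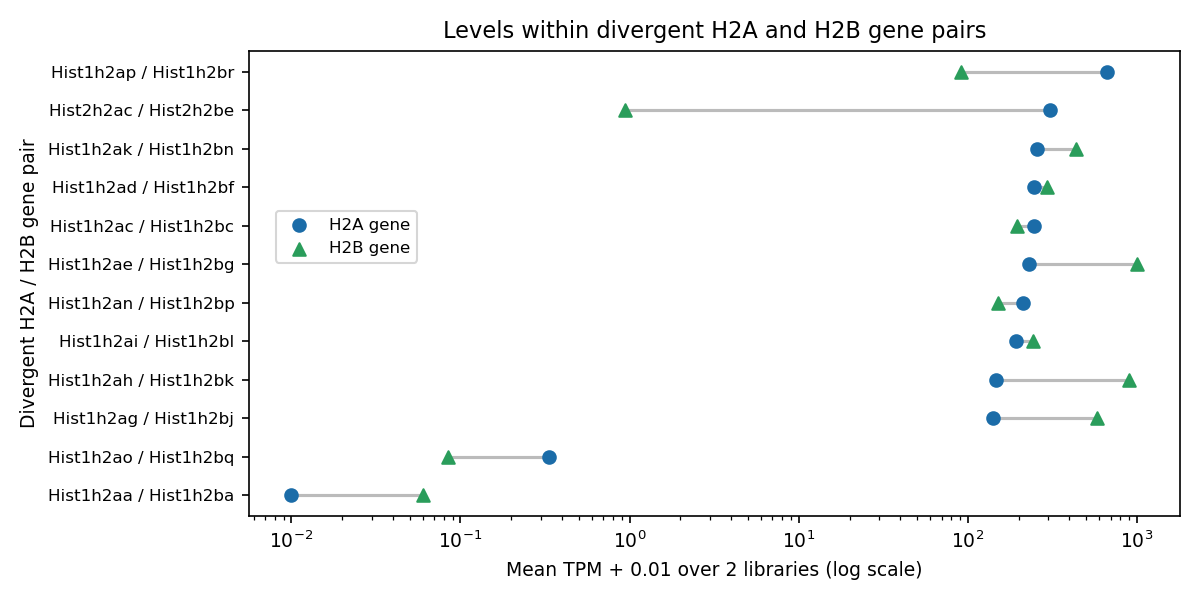
Mean level over both libraries in TPM + 0.01 (log scale) of the H2A gene (circle) and the H2B gene (triangle) of each of 12 divergent pairs, joined by a line. Lines are short for 5 pairs, and the longest joins Hist2h2ac to Hist2h2be. These differ 328-fold by TPM and are annotated at 520 and 2620 bases.

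Histone levels lay within 2-fold between the libraries for genes that averaged at least 1 TPM. Of these 56 genes, 0 differed by 2-fold or more between replicate 1 and replicate 2, against 1.57% of 9851 genes of all kinds. Over all genes, 0.497% were higher in replicate 1 and 1.08% in replicate 2 by that much. A count of 0 of 56 is close to the share over all genes and is not particular to histone genes. The SD of the log2 ratio of replicate 1 over replicate 2 (with a pseudocount of 0.1 TPM) was 0.23 over histone genes and 0.65 over all genes, which include many at low levels. The Pearson correlation of log2 levels was 0.993 over these 56 genes, which share both libraries and some of their reads. The median log2 ratio was -0.06, against 0.04 over all genes. Higher in replicate 1 were 24 genes, against 56.1% of all genes, and higher in replicate 2 were 32, against 43.5% of all genes. The deposited credibility bounds, which cover counting and read assignment within a library, did not overlap for 15 genes higher in replicate 1, against 29.6% of all genes. They did not overlap for 27 genes higher in replicate 2, against 19.0% of all genes. The width of the bounds depends on counts, and histone genes were not matched to other genes on counts.

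By class, H1 had the highest median ratio. The median log2 ratio was 0.29 for H1, with 4 of 5 genes higher in replicate 1, against 56.1% of all genes. The bounds overlapped for none of the 5, since those 4 were higher in replicate 1 (against 29.6% of all genes) and Hist1h1c was higher in replicate 2 (against 19.0%). The median log2 ratio was -0.04 for H2A (8 of 16 genes higher in replicate 1), -0.10 for H2B (4 of 11), -0.02 for H3 (4 of 11) and -0.09 for H4 (4 of 13). The sum over H1 genes was 1416 TPM for replicate 1 and 1155 TPM for replicate 2, whereas that over H4 genes was 7761 and 8832 TPM. With 1 library on each side this has no replicate check. The widest single ratios were those of Hist4h4, at 32.2 and 18.6 TPM in replicates 1 and 2 (log2 ratio 0.79), Hist1h1a (0.52) and Hist1h1b (0.45). At the other end were Hist2h2aa1, at 341 and 455 TPM, and Hist1h4k, at 752 and 1004 TPM, both with a log2 ratio of -0.42. The sum of Hist2h2aa1 and its copy Hist2h2aa2 had a log2 ratio of -0.27.

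The ratio showed no steady trend with gene length. The 33 genes under 500 bases had a median log2 ratio of -0.10, the 16 genes from 500 bases up to 1000 bases 0.09 and the 7 longer genes -0.06. The middle group holds Hist1h1a, Hist1h1b, Hist1h1d and Hist1h1e, and its other 12 genes had a median of -0.06. The authors' effective length was 159 bases below the annotated length in replicate 1 and 166 bases in replicate 2. For Hist1h4k, annotated at 312 bases, this left 153 and 146 bases, so TPM of the shortest genes depends most on the fragment length used.

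Related genes, from lists chosen for this question, are given beside these ratios. All 20 S phase genes were higher in replicate 1, against 56.1% of all genes, and had a median log2 ratio of 0.30. Pcna, the replication clamp, was at 112 TPM for replicate 1 and 84.5 TPM for replicate 2, Mcm6 and Mcm5 of the replicative helicase were at 70.2 and 63.2 TPM and at 58.2 and 47.6 TPM. Ccne2, a cyclin of the entry into S phase, was at 6.36 and 3.13 TPM, the only one at a 2-fold ratio. E2f1 was the lowest, at 1.56 and 1.27 TPM. Over the 4 core histone classes, 20 of 51 genes were higher in replicate 1, against the same 56.1% of all genes.

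Histone chaperones deliver histones to DNA. Of 17 measured, all 17 were detected and 15 were higher in replicate 1, against 56.1% of all genes. The median log2 ratio was 0.27. Rbbp7 was at 103 TPM for replicate 1 and 82.0 TPM for replicate 2, Ssrp1, a subunit of FACT, at 66.8 and 57.7 TPM, and Nap1l1 at 51.0 and 43.6 TPM. Asf1a and Ubn1 were the lowest, at 6.31 and 4.01 TPM and at 5.43 and 5.55 TPM.

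Genes of histone mRNA synthesis, 3′ end processing and decay were detected in 19 of 20 cases. Of these, 14 were higher in replicate 1, against 56.1% of all genes, and the median log2 ratio was 0.22. Slbp, which binds the stem-loop, was at 28.3 TPM for replicate 1 and 21.02 TPM for replicate 2. Sympk, a scaffold of the cleavage complex, was at 30.4 and 33.5 TPM, Srrt at 35.5 and 22.3 TPM, and Ncbp2 of the cap-binding complex at 28.6 and 23.3 TPM. Npat, the coactivator of histone gene transcription, was at 3.56 and 3.01 TPM, and Tut7, a uridylyltransferase, was the lowest detected, at 1.94 and 2.15 TPM. Rnu7, the U7 RNA that guides 3′ end cleavage, was listed at 0, but at 62 bases it had an effective length of 0, so the table could not measure it.

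The list named replication-independent histones holds histone genes outside the Hist1h to Hist4h symbols. How far each depends on the cell cycle was not tested. Of 11 genes, 9 were detected, and the median log2 ratio was 0.01. Higher in replicate 1 were 5 of the 9, near the share of 56.1% over all genes. H2afz, the H2A.Z variant, was at 821 TPM for replicate 1 and 1090 TPM for replicate 2. H3f3a, which encodes H3.3, was at 145 and 140 TPM, and H2afx, the variant phosphorylated at DNA breaks, at 142 and 117 TPM. H2afy2 and H1fx were at or under 0.02 TPM. The 11 genes summed to 1336 TPM for replicate 1 and 1558 TPM for replicate 2, against 21731 and 23205 TPM for the replication-dependent genes.

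**Figure D4:**
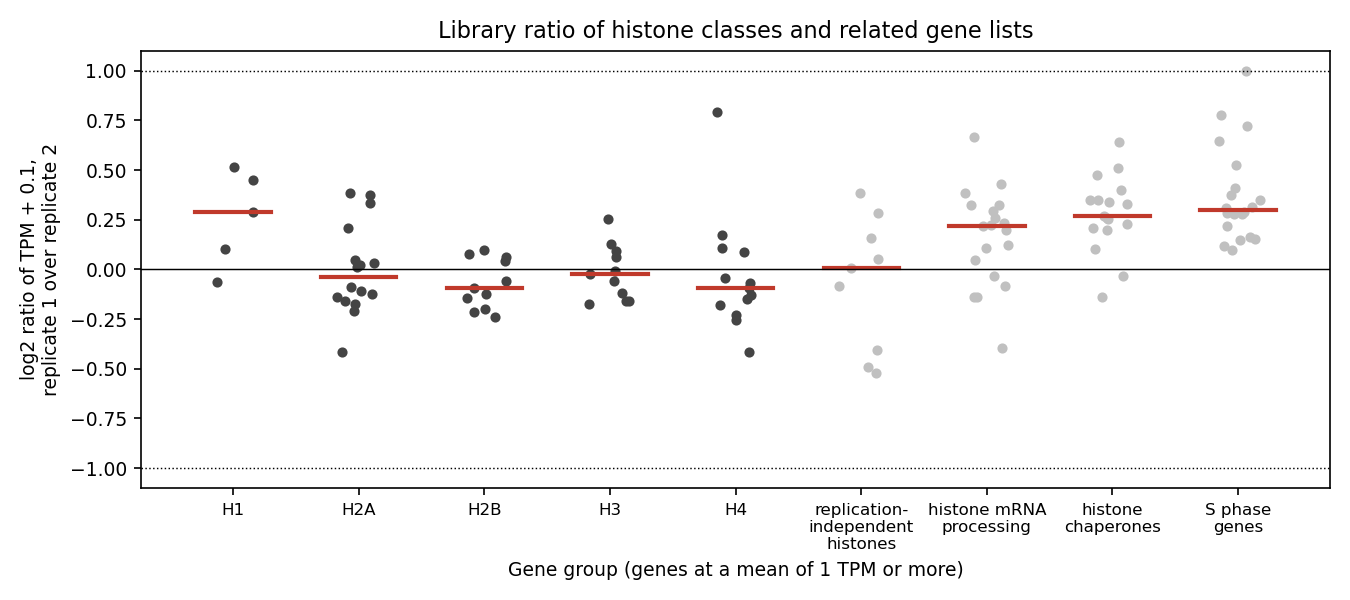
log2 ratio of TPM + 0.1, replicate 1 over replicate 2, for each gene averaging at least 1 TPM, in the 5 histone classes (dark points) and 4 lists of related genes (grey points), with the median of each group as a red line and dotted lines at a 2-fold ratio. Medians of H2A, H2B, H3 and H4 lie between -0.10 and -0.02, while those of H1 and of the S phase, chaperone and mRNA processing lists lie between 0.22 and 0.30.

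Levels of single histone genes also depended on the annotation release. Of 51 genes at 1 TPM or more in replicate 1 with both M2 and M4, 4 differed by 2-fold or more between the releases. In replicate 1, Hist1h2ac was at 248 TPM with M4 (476 bases) and 30.1 TPM with M2 (2482 bases). Hist1h1d was at 295 TPM with M4 (744 bases) and 65.0 TPM with M2 (3821 bases), and Hist1h2ai at 187 TPM with M4 (393 bases) and 90.2 TPM with M2 (1041 bases). For these 3 genes the lower level goes with a longer annotated transcript. Hist2h2aa1 was at 341 TPM with M4 and 23.8 TPM with M2 at similar lengths of 586 and 539 bases. The sum with its copy Hist2h2aa2 was 1308 TPM with M4 and 1234 TPM with M2. Hist1h2ao was at 0 TPM with M4 and 205 TPM with M2, while its sum with Hist1h2ap was 671 and 633 TPM. Of the H3 genes, 5 had no row in M2 (Hist1h3d, Hist1h3f, Hist1h3g, Hist1h3h and Hist1h3i), and all 64 had one in M3.

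**Figure D5:**
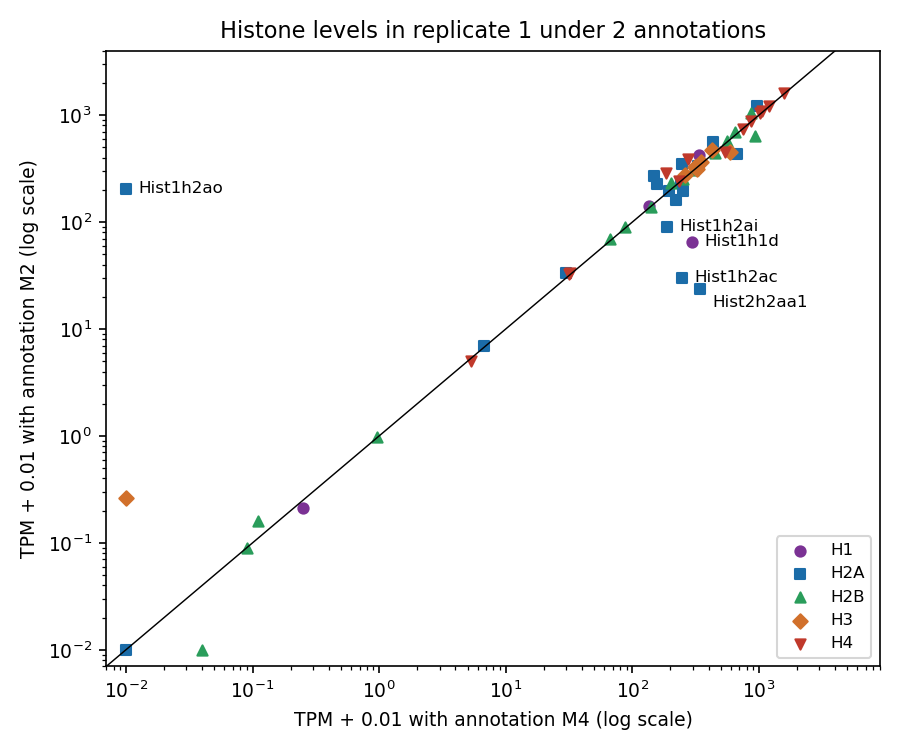
Level of each histone gene in replicate 1 with annotation M4 (x axis) and M2 (y axis), in TPM + 0.01 on log scales, by class, with the line of equality. Most genes lie on or near the line. The labelled genes are the 4 that differ 2-fold or more, below the line, and Hist1h2ao, above it.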

How the data were processed

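Total RNA of CH12.LX was sequenced in 2 libraries with a labelled size range of 300 to 350 bases. Which aligner and quantifier were run is not given in the sources used here. Gene tables made with annotation M2, M3 and M4 and a transcript table made with M4, on mm10 per the labels, were used. Expected counts, as deposited, are estimated reads of each gene and need not be whole. The deposited TPM are the main levels, per the file headers. The deposited FPKM values, per the file headers, served an alternative. Transcript shares are deposited as percent of the TPM of a gene. Further columns, deposited by the authors and of other kinds, hold lengths, credibility bounds, whose level is not stated in the headers, and posterior SDs of counts.

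Rows without an Ensembl identifier were left out, and 42462 of 43346 genes matched GENCODE M21, which gave symbols, coordinates (GRCm38, the assembly of mm10) and transcripts. The main table is M4. Members and gene lists were chosen with earlier results of these data known. With 1 group there is no test. A gene was called detected at 1 TPM in both libraries, and ratios used a pseudocount of 0.1 TPM over genes averaging at least 1 TPM. The labels call the libraries biological replicates, and an SD over 2 of them measures only their spread. Named genes are the 3 highest and 2 lowest per class and list, all Hist2, Hist3 and Hist4 genes, testis genes, genes past 2-fold and genes that carry a comparison. Some genes that this rule takes are not reported here. The chaperone gene Spt2 did not match. Windows of 50 bases were compared with all M21 transcripts, and 44 genes had M21 and M4 transcripts of equal length. Rounded expected counts were scaled with edgeR 4.0.16 and DESeq2 1.42.0 in R 4.3.3 as alternatives. Other steps used Python 3.11.15, numpy 2.4.6, pandas 2.3.3 and matplotlib 3.10.9, and the ratio step was tested on simulated data. Depth per library limits single low genes, where counting error is largest, and floors of 3 counts cover counting error only.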

Additional observations from a re-analysis of the deposited data

How the results depend on the processing

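Counts of detected histone genes ranged from 52 to 58 over the alternatives, against 56. The median log2 ratio ranged from -0.08 to -0.05, against -0.06. The median histone level, 245 TPM as the mean of both libraries, was 262 TPM with M2, 253 TPM with M3, 272 TPM over genes averaging at least 1 TPM and 1005 TPM when rescaled to protein-coding genes, and 240 to 250 TPM when either library was left out. The rescaled value follows from a smaller total, since protein-coding genes held 24.3% of TPM. The H1 share, 5.75%, was 6.91% by counts per annotated length, 10.7% by expected counts and 4.98% to 6.52% when either library was left out. The Hist1 share, 89.1%, was 88.8% with M2, 88.1% by counts per annotated length, 85.0% by expected counts and 88.9% to 89.3% when either library was left out. With no filter on low values, 3 genes passed a 2-fold ratio, against 0. H1 kept a positive median log2 ratio with TMM factors (0.28), DESeq2 size factors (0.28) and M3 (0.28), and the medians of the core classes stayed negative. For the other moves the cause was not tested. No paired analysis was possible because there is a single group. Depth limits the values of genes with few counts.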
